A study of Homo sapiens with 4 samples.

Results

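LTR10 names a group of LTRs (long terminal repeats), the sequences that flank and regulate an endogenous retrovirus, left in the human genome by viruses related to HERV-I. The 7 subfamilies LTR10A, LTR10B, LTR10B1, LTR10C, LTR10D, LTR10E and LTR10F were taken by name from a deposited table of 373 LTR subfamilies. The heterochromatin marks H3K9me2 and H3K9me3 (di- and trimethylation of lysine 9 of histone H3), were measured by native ChIP-seq in HCT116, an established human colorectal carcinoma line. The 2 marks are named as in the sample labels and the column names, while the series' design text gives H3K9me2 in both places. Cells were given PBS, the vehicle, or 300 nM 5-aza-CdR (decitabine) for 24 h and were collected at 5 days. Each of the 4 combinations of mark and treatment was 1 library, so no value below has a replicate check, no p-value was computed and the spread between cultures is unknown.

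An LTR holds the promoter, the enhancer sequences and the polyadenylation signal of a retrovirus, and a lone LTR that remains after the viral genes are lost can act on genes of the host. LTR10 repeats are known for 2 kinds of factor site. Many copies carry sites for p53, the tumour suppressor that binds DNA after damage, a property shared with the MER61 repeats. LTR10A and LTR10F copies are known as enhancers in colorectal cancer cells, where AP-1, the dimer of FOS and JUN proteins downstream of growth factor signalling, binds them. In most tissues such repeats are held silent by DNA methylation and by H3K9 methylation. SETDB1, recruited by KRAB zinc finger proteins and TRIM28, writes H3K9me3 at many of them, and EHMT2 (G9a) with EHMT1 writes most H3K9me2. 5-aza-CdR is a cytosine analogue that traps DNA methyltransferases on DNA, so that methylation is lost as cells divide.

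The values are the authors' z-scores, 1 per subfamily and library, with no counts, so the depth behind them is unknown. The sources used here do not say on which population they were centred. A z-score can therefore be ranked among the 373 subfamilies of its library. For the shift of a whole library between treatments, the authors' scale and a change in the mark cannot be told apart. LTR10 subfamilies resemble each other in sequence, and how reads that fit several copies were assigned is not given, so their values may share reads. Enhancer activity, p53 binding and DNA methylation were not among the measurements, and the table holds no markers by which the cell line could be checked.

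In PBS-treated cells LTR10 lay in the lower part of the H3K9me2 scale and had no common place on the H3K9me3 scale. The LTR10 subfamilies had a median H3K9me2 z-score of -0.676 against -0.412 over the 373 subfamilies, and 7 of 7 lay below the latter value. This low place was not particular to LTR10. The families compared below also lay under -0.412, with 7 of 7 LTR12 (median -0.680), 4 of 4 LTR7 (-0.631) and 6 of 6 MER61 subfamilies (-0.509). LTR10D had the lowest H3K9me2 z-score (-0.741), followed by LTR10A (-0.714), LTR10B (-0.700), LTR10E (-0.676), LTR10F (-0.603), LTR10C (-0.548) and LTR10B1 (-0.492). The lowest 4 of these values lay within a short stretch, with only 5.11% to 9.14% of the other 372 subfamilies below them. LTR10F, LTR10C and LTR10B1 followed with 14.8%, 23.4% and 32.8% below them. For H3K9me3 the median over LTR10 was -0.517 against -0.504 over all subfamilies, and 4 of 7 lay below the latter. Set against the median of their own class of CpG density (described below), 4 of 7 lay above it for H3K9me3. For H3K9me2, 2 of 7 lay above the median of their class and 5 of 7 below it.

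The H3K9me3 z-scores in PBS ran from -0.552 at LTR10D through -0.540 at LTR10A, -0.532 at LTR10F, -0.517 at LTR10B, -0.504 at LTR10C and -0.501 at LTR10B1 to -0.476 at LTR10E. The span of these 7 values was 0.0761, which is small in z-score units, yet the whole table was narrow in this library (SD 0.0354 over 373 subfamilies). In ranks the LTR10 values were therefore widely scattered, from 7.53% of the other subfamilies below LTR10D to 88.2% below LTR10E. The enhancer subfamilies LTR10A and LTR10F were on the low side for both marks: 14.2% and 18.8% of the others were lower for H3K9me3, and 6.45% and 14.8% for H3K9me2.

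**Figure D1:**
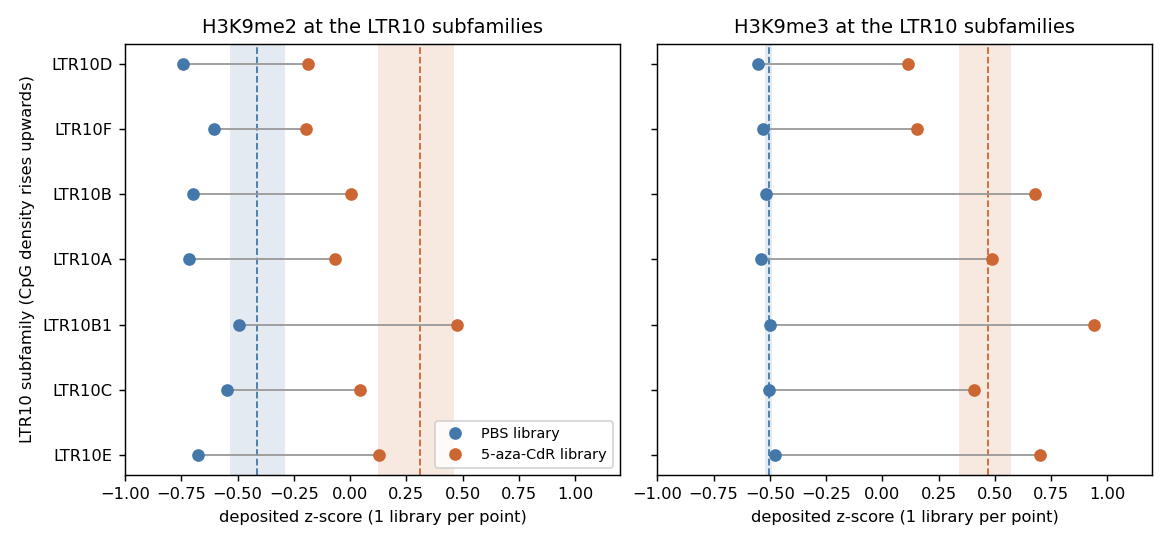
Deposited z-scores (horizontal axis) of H3K9me2 (left) and H3K9me3 (right) at the 7 LTR10 subfamilies, ordered by CpG density, with 1 point per library (blue PBS, orange 5-aza-CdR). Dashed lines and bands are the median and interquartile range over 373 subfamilies. The PBS points of H3K9me2 lie left of the blue line in 7 of 7 subfamilies, and the orange H3K9me3 points run from 0.114 at LTR10D to 0.939 at LTR10B1.

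In the 5-aza-CdR libraries the LTR10 subfamilies lay further apart. LTR10B1 had a H3K9me2 z-score of 0.474, and 77.4% of the other subfamilies were lower. The next value was that of LTR10E (0.130), followed by LTR10C (0.0441), LTR10B (0.00401), LTR10A (-0.0687), LTR10D (-0.189) and LTR10F (-0.195). LTR10B1 was thus the only member above the median of all subfamilies in this library (0.312), and the gap between it and the next member was wider than the one between LTR10E and LTR10F, the lowest. LTR10D and LTR10F, nearly equal, lay low in the table, with 6.99% and 6.45% of the others below them.

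For H3K9me3 the 5-aza-CdR values formed an upper set, a middle and a lower pair. LTR10B1 was at 0.939, the second highest of 373 subfamilies, and LTR10E (0.701) and LTR10B (0.676) followed at ranks 23 and 33 from the top. LTR10A (0.487) and LTR10C (0.406) lay near the median of all subfamilies (0.468). LTR10F (0.154) and LTR10D (0.114) were at ranks 30 and 19 from the bottom. The SD over the 7 members was 0.0261 in PBS and 0.300 in 5-aza-CdR, 11.5 times as wide, while over all 373 subfamilies it was 5.81 times as wide. For H3K9me2 the ratio was 2.46 over LTR10 and 1.55 over all subfamilies. Without LTR10B1, a member left out after its values were seen, the ratios over the remaining 6 were 9.14 and 1.77. A wider spread was not particular to LTR10, as the families compared below had it too. Their H3K9me3 SDs in PBS and 5-aza-CdR were 0.0194 and 0.191 for LTR12, 0.00861 and 0.0702 for LTR7, and 0.0208 and 0.148 for MER61. For H3K9me2 they were 0.0776 and 0.161, 0.0539 and 0.0801, and 0.0792 and 0.0989. Ratios of SDs over 7 related subfamilies describe these 4 libraries and were not tested.

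The treatment comparison asked how each mark differed between 5-aza-CdR and PBS. Every LTR10 subfamily had the higher z-score in the 5-aza-CdR library for both marks, as did 372 of 373 subfamilies for H3K9me2 and 373 of 373 for H3K9me3, so the sign alone says nothing about LTR10. What can be read is the place of each difference among all of them. For H3K9me3 the SD over 373 subfamilies was 0.0354 in PBS and 0.206 in 5-aza-CdR. The place of a H3K9me3 difference therefore largely repeats that of the 5-aza-CdR level and is not a separate result. For H3K9me2 the SDs were 0.187 and 0.290, so the 5-aza-CdR level also weighs more there. In place of a test, a measure of size was used, a limit set 2 robust SDs (from the scaled median absolute deviation) to either side of the median difference. The limits were 0.452 and 0.952 for H3K9me2 around a median of 0.702, and 0.687 and 1.26 for H3K9me3 around a median of 0.973.

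LTR10B1 was at the upper end for both marks. Its H3K9me2 difference was 0.966, which was 2.11 robust SDs above the median and rank 10 of 373. Its H3K9me3 difference was 1.44, which was 3.27 robust SDs above the median and rank 2, with LTR11 (2.3) above it and LTR81AB (1.32) below it. It was 1 of 7 members above the limit for H3K9me2, where 2.95% of all subfamilies were, and 1 of 7 for H3K9me3, where 1.88% were. The H3K9me2 value lay just past the limit: MER92C (0.968) and MER66D (0.955) were its neighbours in the order.

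LTR10F, one of the AP-1 enhancer subfamilies, was at the lower end for both marks. Its differences were 0.408 for H3K9me2 (-2.35 robust SDs from the median, rank 18 from the bottom) and 0.686 for H3K9me3 (-2.01 robust SDs, rank 27 from the bottom). LTR10D was lower still for H3K9me3 at 0.666 (-2.15 robust SDs), between LTR7C (0.6736) and LTR19C (0.664), but lay within the limit for H3K9me2 at 0.553. For H3K9me2, LTR30 (0.409) and LTR9B (0.407) were the neighbours of LTR10F. Below the limit were thus 1 of 7 members for H3K9me2, against 8.04% of all subfamilies, and 2 of 7 for H3K9me3, against 7.24%. The CpG-rich LTR12 and LTR7 repeats, compared below, had larger shares of their subfamilies there for both marks. Both LTR10F and LTR10D passed the H3K9me3 limit narrowly. Neither lay beyond a limit for either mark with each library set to SD 1, on ranks, or when measured from the median of its CpG class.

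The other 4 members lay within the limit for both marks on the deposited scale, though not on every scale. For H3K9me3 LTR10B lay above it with SD 1 in each library, on ranks and within its CpG class (2.05, 3.01 and 2.67 robust SDs), and LTR10A did on ranks (2.11). For H3K9me2 LTR10E did with SD 1 (2.22). LTR10E had differences of 0.806 for H3K9me2 and 1.18 for H3K9me3, and LTR10B had 0.704 and 1.19. Both stood high for H3K9me3, with 92.7% and 94.6% of the other subfamilies lower, while LTR10B was at the middle of the table for H3K9me2 (50.5% lower). LTR10A, the other AP-1 enhancer subfamily, had differences of 0.646 and 1.03, the former below and the latter above the median of all subfamilies, and its H3K9me2 value lay above the median with SD 1, on ranks and within its CpG class. LTR10C had 0.592 and 0.910, both below the median as deposited, and both above it when measured within its CpG class. The enhancer subfamilies thus did not lie together: LTR10A exceeded LTR10F by 0.237 for H3K9me2 and by 0.341 for H3K9me3.

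Over the 7 members the median difference was 0.646 for H3K9me2 and 1.03 for H3K9me3. On the deposited scale the H3K9me2 median lay at -0.45 robust SDs from that of all subfamilies, but at 1.08 with SD 1 in each library, 0.697 on ranks and 0.553 within CpG classes, so it has no settled direction. The H3K9me3 median was 0.384 robust SDs above that of all subfamilies and stayed above it on those scales, by 0.513, 0.344 and 1.41. The 2 differences ordered the members alike, with a Spearman rho of 0.93 over 7 subfamilies, against 0.70 over 373. Between the levels of the 2 marks, rho over LTR10 was close to that over all subfamilies. It was 0.86 against 0.85 in 5-aza-CdR, and 0.71 against 0.76 in PBS. The 2 marks share no library here, and whether they share an input is not given.

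**Figure D2:**
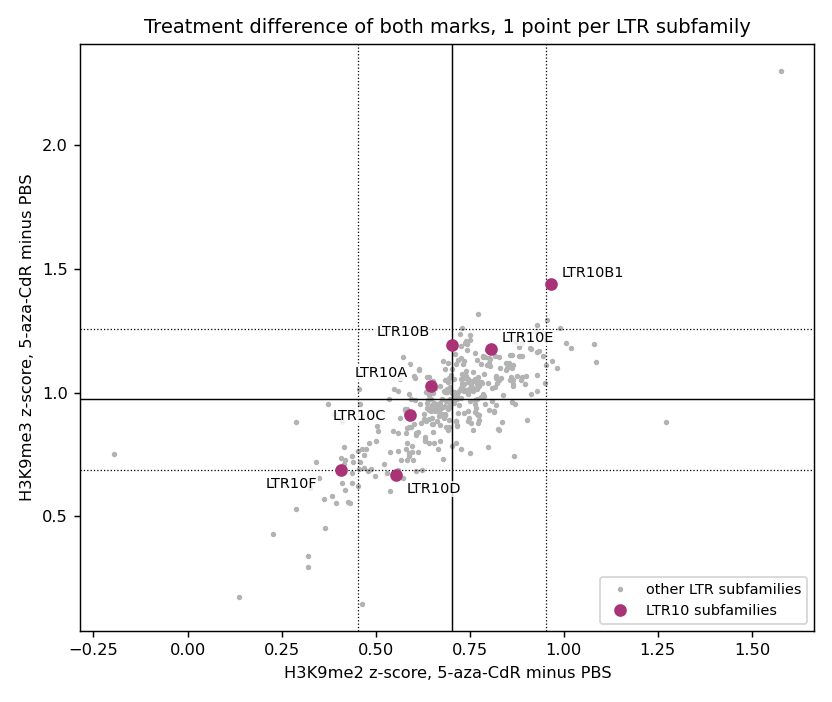
Treatment difference (5-aza-CdR minus PBS, in z-score units) of H3K9me2 (horizontal) and H3K9me3 (vertical), 1 point per LTR subfamily, with LTR10 in purple. Solid lines are the medians over 373 subfamilies and dotted lines the limits of 2 robust SDs. LTR10B1 (0.966 and 1.44) lies beyond both upper limits, LTR10F (0.408 and 0.686) beyond both lower ones.

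LTR10 is CpG-rich among LTRs, and CpG-rich LTRs had the lower z-scores in each library, so CpG density was set beside each value. CpG pairs are the sites of DNA methylation, and old methylated repeats lose them by mutation. Of 3 classes of CpG density, 6 of the 7 members were in the upper one (125 subfamilies) and LTR10E was in the intermediate one (124 subfamilies). The deposited densities, whose denominator is not stated, ran from 0.00753 at LTR10E through 0.00964 at LTR10C, 0.0102 at LTR10B1, 0.0110 at LTR10A and 0.0118 at LTR10B to 0.0145 at LTR10F and 0.0146 at LTR10D. The 2 subfamilies with the most CpG, LTR10D and LTR10F, were thus also the 2 with the lowest H3K9me3 differences on the deposited scale. On ranks LTR10C was the lowest member (-0.798 robust SDs), followed by LTR10F (-0.523) and LTR10D (-0.0964).

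Within LTR10 the z-score was lower at higher CpG density in each library, as over the whole table. The Spearman rho over the 7 members was -0.54 for H3K9me2 and -0.86 for H3K9me3 in PBS, and -0.82 and -0.68 in 5-aza-CdR, against -0.74, -0.61, -0.77 and -0.67 over 373 subfamilies. For the treatment difference it was -0.64 for H3K9me2 and -0.54 for H3K9me3, against -0.50 and -0.63. These 7 points share their libraries and their descent, so the coefficients are a description only.

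Set against the median of their own CpG class, the members spread to both sides. LTR10B1 exceeded it by 0.481 for H3K9me2 in 5-aza-CdR, rank 2 of the 125 in its class, and by 0.638 for H3K9me3, rank 1 of 125. LTR10B exceeded it for H3K9me3 in 5-aza-CdR by 0.376, rank 3 of 125. LTR10D and LTR10F lay below the median of their class for both marks in 5-aza-CdR. They were at -0.182 and -0.188 from it for H3K9me2 and at -0.187 and -0.146 for H3K9me3. For H3K9me2 in 5-aza-CdR, LTR10E (-0.184, rank 16 from the bottom of 124) and LTR10A (-0.0618) also lay below the median of their class. For the treatment difference, 5 of 7 members lay above the median of their class for each mark, and LTR10D and LTR10F were the 2 that did not. The upper class is wide, with densities from 0.00901 to 0.0671. LTR10D and LTR10F rank 39 and 42 from the top of all subfamilies in CpG density. LTR10B, LTR10A, LTR10B1 and LTR10C, of the same class, rank 73, 82, 99 and 114. A place within a class is therefore not free of CpG density. The H3K9me2 z-score of LTR10E in PBS lay at -0.266 from the median of its class, rank 4 from the bottom of 124.

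**Figure D3:**
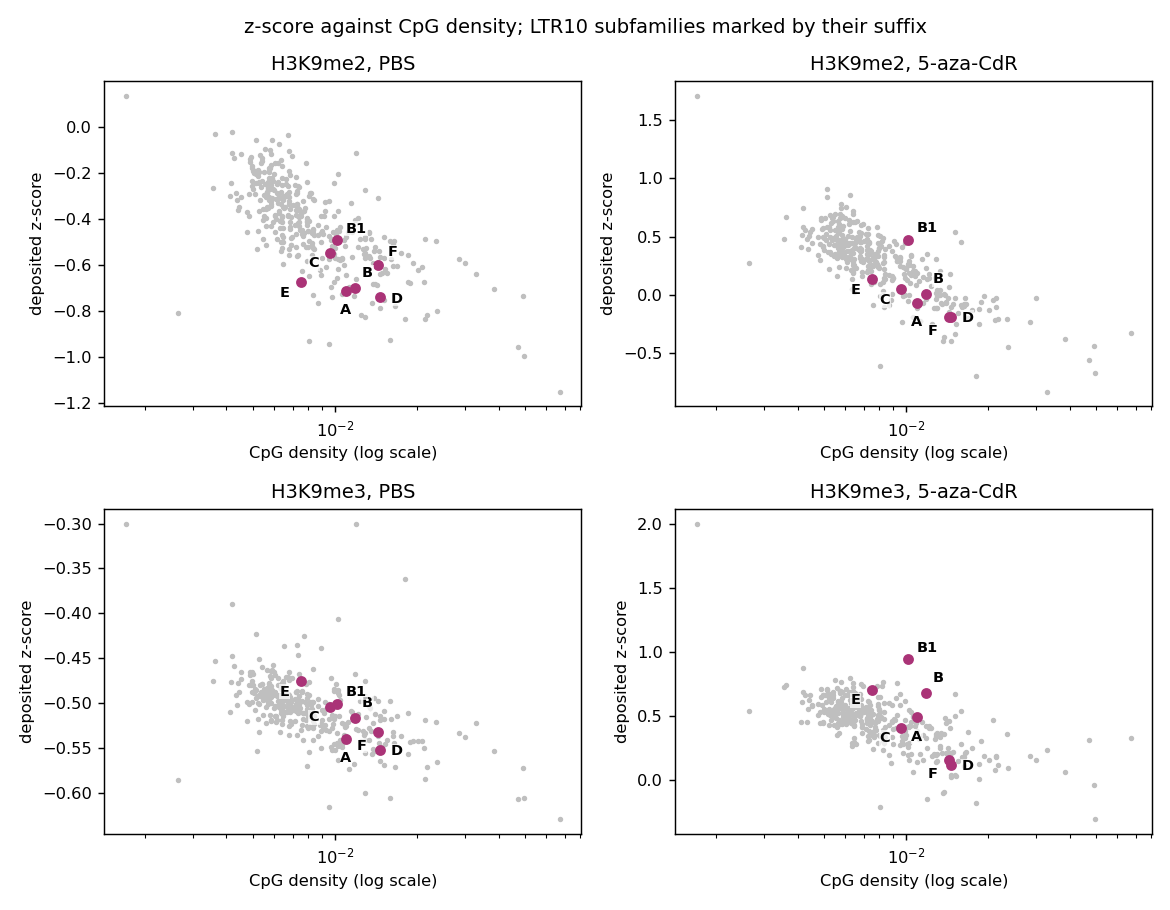
Deposited z-score (vertical axes) against CpG density (horizontal, log scale) in each of the 4 libraries, 1 point per LTR subfamily, with the LTR10 subfamilies in purple and marked by the end of their name. B1 lies above nearly all subfamilies of similar density in 5-aza-CdR (0.474 for H3K9me2 and 0.939 for H3K9me3), and E lies low for H3K9me2 in PBS (-0.676).

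LTR10 subfamilies often held a higher place for H3K9me3 than for H3K9me2. The marks have scales of their own, so the comparison was made on percentiles, the percent of the other subfamilies with a lower z-score. In PBS the percentile was higher for H3K9me3 in 7 of 7 members and in 41.6% of all subfamilies. The limit of 2 robust SDs was applied to these gaps after they had been seen. LTR10E was the clear case, at 9.14% for H3K9me2 and 88.2% for H3K9me3, a gap of 79.0 points that was the fourth largest of 373. LTR10C (26.9 points), LTR10B (26.3) and LTR10B1 (22.8) came next, and LTR10A (7.80), LTR10F (4.03) and LTR10D (2.42) had small gaps. Over all subfamilies the interquartile range of the gaps was -11.3 to 10.2 points, and the gap was more than 2 robust SDs above the median in 1 of 7 members (LTR10E) and in 5.90% of all.

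In the 5-aza-CdR libraries the gap was wide in more members. LTR10B had the largest gap of all 373 subfamilies, from 19.6% for H3K9me2 to 91.4% for H3K9me3 (71.8 points). LTR10E was second, from 25.5% to 94.1% (68.5 points), and LTR10A was at rank 10, from 13.4% to 54.6% (41.1 points). LTR10B1 had 22.3 points, LTR10C 11.8, LTR10F 1.34 and LTR10D -2.15. The gap was more than 2 robust SDs above the median in 4 of 7 members (LTR10A, LTR10B, LTR10B1 and LTR10E), against 10.2% of all subfamilies. Ranked within their CpG class, 3 of these 4 still had a gap above the limit, against 8.58% of all subfamilies, and LTR10B1, near the top of its class for both marks, did not, at 0.800 points. With SD 1 in each library in place of percentiles, 5 of 7 members did, against 11.3% of all. The direction was shared by MER61 and LTR12, compared below, but not by LTR7. Median percentiles for H3K9me2 and H3K9me3 in PBS were 9.14% and 33.3% for LTR10, 29.7% and 35.3% for MER61, 8.60% and 11.3% for LTR12, and 12.1% and 11.6% for LTR7. In 5-aza-CdR they were 19.6% and 54.6%, 18.1% and 25.1%, 4.30% and 9.41%, and 6.18% and 4.03%.

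LTR10A and LTR10B changed place between treatments for H3K9me3 in particular. From PBS to 5-aza-CdR their H3K9me3 percentile was higher by 40.3 and 58.1 points, and their H3K9me2 percentile by 6.99 and 12.6 points. The H3K9me3 places in PBS rest on small gaps in 1 library, where the SD over 373 subfamilies was 0.0354. LTR10B1 was higher by 44.1 and 44.6 points, alike for both marks. LTR10E, already high for H3K9me3 in PBS, was higher by 5.91 points for H3K9me3 and by 16.4 for H3K9me2. LTR10F and LTR10C held a lower place in 5-aza-CdR than in PBS, with changes of -11.0 and -16.4 points for H3K9me3 and of -8.33 and -1.34 points for H3K9me2. LTR10D, low in all 4 libraries, moved little, by -2.69 points for H3K9me3 and 1.88 for H3K9me2.

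**Figure D4:**
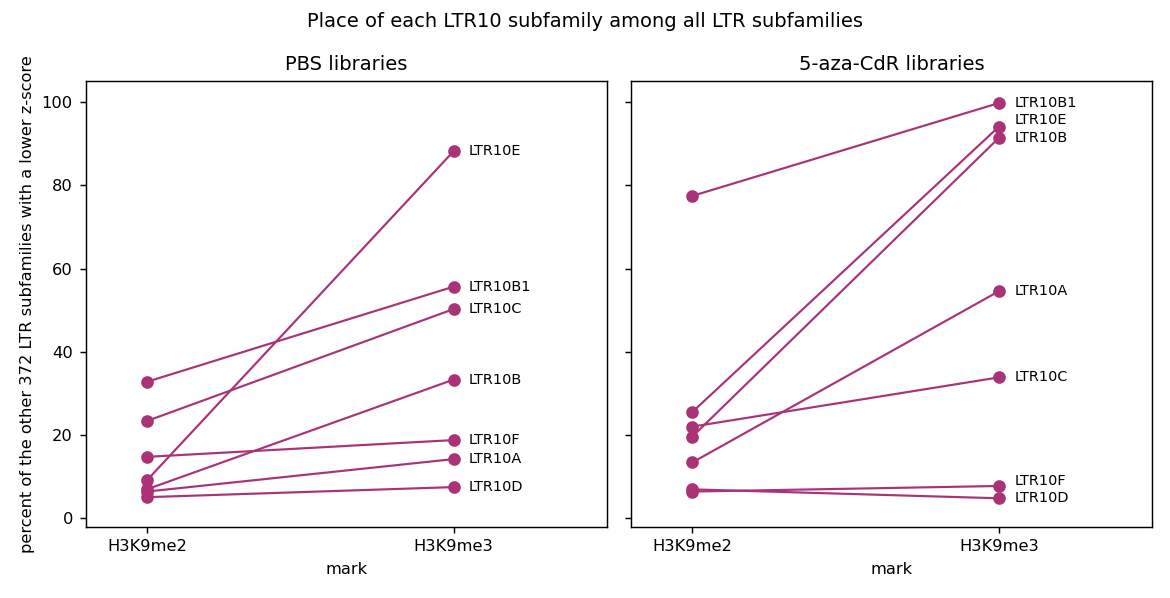
Percent of the other 372 LTR subfamilies with a lower z-score (vertical axis) for each LTR10 subfamily in the PBS (left) and 5-aza-CdR (right) libraries, with a line joining its H3K9me2 and H3K9me3 values. The line of LTR10E is steep in both panels (9.14% to 88.2% and 25.5% to 94.1%), that of LTR10B mainly in 5-aza-CdR (19.6% to 91.4%), and LTR10D and LTR10F stay low.

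A further subfamily of the same name, LTR10G, is in the table but not among the 7. Its H3K9me2 z-scores were -0.621 in PBS and -0.00458 in 5-aza-CdR, and its H3K9me3 z-scores were -0.548 and 0.542. LTR10G had differences of 0.616 and 1.09, both within the limits. Its percentile for H3K9me3 in 5-aza-CdR was 48.9 points above that for H3K9me2, the eighth largest gap, and in PBS the gap was -3.76 points. From PBS to 5-aza-CdR its H3K9me3 percentile was higher by 58.6 points and its H3K9me2 percentile by 5.91 points. It thus resembled LTR10A, with low values of both marks in PBS and a middle to high H3K9me3 value in 5-aza-CdR.

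MER61, the other LTR family known for p53 sites, had 6 subfamilies in the table, with a median CpG density of 0.00939 against 0.0110 for LTR10. Its median H3K9me2 z-score in PBS was -0.509, from -0.647 at MER61F to -0.431 at MER61E, higher than that of LTR10 (-0.676). In 5-aza-CdR the H3K9me2 medians were close, -0.00765 for MER61 and 0.00401 for LTR10. The H3K9me3 medians were -0.515 for MER61 and -0.517 for LTR10 in PBS, and 0.340 and 0.487 in 5-aza-CdR. The median differences of MER61 were 0.524 for H3K9me2 and 0.856 for H3K9me3, with 1 of 6 subfamilies below the limit for H3K9me2, 0 of 6 for H3K9me3 and 0 above. The range over subfamilies was 0.303 and 0.342 for MER61, narrower than the 0.558 and 0.773 of LTR10.

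The LTR12 repeats of ERV9 and the LTR7 repeats of HERV-H, also CpG-rich, were set beside LTR10 for their treatment differences. LTR12 (7 subfamilies, from LTR12E at 0.289 to LTR12F at 0.614) had a median H3K9me2 difference of 0.385, and LTR7 (4 subfamilies, from LTR7 at 0.362 to LTR7C at 0.530) one of 0.432, against 0.646 for LTR10. The ranges of LTR12 and LTR10 overlap, and LTR10F alone lay within that of LTR7. Below the H3K9me2 limit were 5 of 7 LTR12 and 3 of 4 LTR7 subfamilies, against 1 of 7 for LTR10 and 8.04% of all. Below the H3K9me3 limit were 3 of 7 and 4 of 4, against 2 of 7 for LTR10 and 7.24% of all. The median H3K9me3 difference of LTR12 was 0.719, from 0.531 at LTR12E to 1.01 at LTR12_, against 1.03 for LTR10. For H3K9me3 LTR7 spanned only 0.115, from 0.560 at LTR7Y to 0.6744 at LTR7B, and LTR10D was the only LTR10 member inside that span. The order of these families was not tested, since the lists were chosen with earlier results known and each has few subfamilies.

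Finally, the profile over the 4 libraries, each set to mean 0 and SD 1, was compared between subfamilies by Euclidean distance. The subfamilies outside LTR10 nearest to each member are named here with their distances. LTR10F was nearest to LTR12D (distance 0.259) and LTR14 (0.338), LTR10D to LTR22B (0.341) and LTR1 (0.427), and LTR10C to LTR27B (0.393) and LTR8 (0.439). LTR10A was nearest to MER61F (0.575) and LTR12_ (0.580), and LTR10B to MER61F (1.03) and MER9a1 (1.11). LTR10B1 had MER66D (1.12) and MER88 (1.15) as neighbours. LTR10E was nearest to MER87 (1.35) and MER61E (1.44), and to LTR10B (1.24) within the family. Within the family LTR10D and LTR10F were the closest pair (0.953), and LTR10B1 and LTR10D were the farthest apart (5.02), more than the median distance of LTR10D to all other subfamilies (3.42). LTR10B and LTR10B1, despite their names, differed by 0.470 for H3K9me2 and 0.262 for H3K9me3 in 5-aza-CdR, which is 1.62 and 1.28 times the SD over all subfamilies.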

How the data were processed

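Native ChIP-seq of H3K9me2 and H3K9me3 in HCT116 cells gave 1 library per mark and treatment, and the submitters' processing notes name Bowtie2 and hg19. Per the file headers, the deposited values are the authors' z-score per LTR subfamily (a score, not a count) and a CpG density, a ratio whose denominator is not stated. The z-scores, whose read handling, input and reference population the sources used here do not give, were used as deposited. Differences were taken as 5-aza-CdR minus PBS. Sizes were expressed in robust SDs from the median of 373 subfamilies, with a limit of 2 robust SDs. The limit was run on simulated data only with shifts larger than any LTR10 difference. That run therefore cannot show how well the limit serves for values close to it. Percentiles are shares of the other 372 subfamilies. The table was split into 3 classes of nearly equal size by the deposited CpG density. Subfamilies named besides LTR10 are LTR10G, the neighbours of the extreme members in the order of differences, the 2 nearest profiles per member, and the highest and lowest members of MER61, LTR12 and LTR7. The members, lists and alternatives were chosen with earlier results of these data known. Genomic positions and repeat sequences were not used here. Python 3.11.15, pandas 2.3.3, numpy 2.4.6 and scipy 1.17.1 were used.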

Additional observations from a re-analysis of the deposited data

How the results depend on the processing

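With 1 library per group no alternative can show the error of a value. The LTR10 median of the H3K9me2 difference reversed its side, from -0.45 robust SDs to 1.08 with SD 1 in each library, 0.70 on ranks and 0.55 from the median of the CpG class; the cause was not tested. Single H3K9me2 values that reversed were LTR10A (1.08 with SD 1, 0.70 on ranks, 0.55 by CpG class), LTR10D (0.45 with SD 1, 0.27 on ranks), LTR10C (0.073 by CpG class) and LTR10B (-0.30 without the 20% of subfamilies nearest 0). For H3K9me3 LTR10C did (0.52 by CpG class). Above the H3K9me2 limit were 2 members with SD 1 (8.04% of all subfamilies) and 0 with limits of 3 robust or 2 ordinary SDs (1.07% for each), against 1 (2.95%). Below it were 0 with SD 1 (2.95%), ranks (3.49%), CpG classes (2.95%), 3 robust SDs (2.14%) and 2 ordinary SDs (2.68%), against 1 (8.04%). Above the H3K9me3 limit were 2 with SD 1 (5.36%), 3 on ranks (7.24%) and 2 by CpG class (2.41%), against 1 (1.88%). Below it were 0, against 2 (7.24%), under every alternative except leaving out LTR5 and LTR11, with 0.336% to 6.43% of all subfamilies there; without the 20% nearest 0, LTR10D and LTR10F were themselves left out, as was LTR10C for H3K9me2. The median gap between the marks in 5-aza-CdR was 1.06 robust SDs within CpG classes and 4.43 in SD 1 units, against 2.33, and in PBS 2 members had a gap above the limit in SD 1 units (4.83% of all) and within CpG classes (5.36%), against 1 (5.90%). These alternatives for the gap were chosen after seeing the data. So was a level taken from the median of the CpG class, where the H3K9me3 median in PBS reversed its side, from -0.49 to 0.73 robust SDs. The H3K9me3 median difference kept its side of the median under each alternative run. No paired analysis was possible because each group has 1 library.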
